A study of Caenorhabditis elegans with 11 samples.

Results

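Indicaxanthin arrays that lacked yolk signal were set against untreated controls, in whole Caenorhabditis elegans of the wild-type N2 strain. The arrays were chosen by the level of vit-2, a vitellogenin gene whose yolk protein adult hermaphrodites load into oocytes. An indicaxanthin array was used where the log2 level of vit-2 lay under 6, which kept arrays 1 and 2 and left out array 3, and both control arrays were used, giving 4 of the 11 arrays of the series. The levels of vit-2 were 2.39 and 1.92 on the arrays kept, 10.26 on the array left out, and 1.58 and 1.81 on the control arrays. These levels chose the arrays and are no result.

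The series holds 3 arrays of animals given indicaxanthin, 3 of animals given indoline carboxylic acid-betacyanin (called indoline-betacyanin from here), 3 of animals given phenylalanine-betaxanthin, and 2 of untreated animals, each array being an independent trial of its group. Each betalain was given at 25 µM, in liquid S medium at 20 °C, for 48 h from 16 to 18 h after hatching. Every array, controls included, is of N2 animals that the labels call young adults aged 3 days. The labels do not say what the control animals received in place of a betalain, or how many animals went into a sample. With 2 arrays in each group the spread is measured poorly, so the other 6 arrays entered the same fit and shared 1 estimate of it.

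Betalains are the yellow and red pigments of cactus fruits and beets, and each joins betalamic acid to an amine or amino acid. Indicaxanthin, the yellow pigment of the prickly pear, carries proline, phenylalanine-betaxanthin carries phenylalanine, and indoline-betacyanin carries indoline carboxylic acid. The worm meets foreign chemicals with cytochromes P450 and conjugating enzymes such as glutathione transferases. It meets microbes and wounds with secreted peptides, lysozymes and saposin-like proteins, since it has no circulating immune cells. Insulin-like signalling through daf-2 and the transcription factor daf-16, together with skn-1 and hsf-1, sets much of its resistance to stress.

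The developmental state of the 4 arrays was checked against lists of stage markers, with levels as mean log2 signal over a list. The 6 yolk genes averaged 1.72 and 1.75 on the indicaxanthin arrays, against 1.71 and 1.56 on the control arrays. This list holds vit-2, by which the arrays were chosen, so its low level with indicaxanthin is no result. The 32 oocyte and eggshell genes averaged 2.56 and 2.52 with indicaxanthin, against 3.19 and 2.71 in controls. The 42 genes of germ line and meiosis averaged 2.50 and 2.42 with indicaxanthin and 2.63 and 2.50 in controls. On the array left out these 3 lists averaged 10.1, 8.09 and 6.12, and all 3 phenylalanine-betaxanthin arrays stood at similar levels, so the yolk and oocyte signal that goes with adult hermaphrodites was near the bottom of the scale on all 4 arrays compared. This goes against the label of young adults for these 4 arrays. The oocyte list was still the lower with indicaxanthin, with a median difference of -0.35, and 2 of its 32 genes passed the threshold of the fit across all genes, 8 without control array 2, which is given as a description since the arrays were chosen on a yolk gene. These 2 were meg-1, at 1.57 and 2.17 with indicaxanthin, against 3.78 and 3.73 in controls, and the eggshell gene cpg-1, at 2.44 and 2.07 with indicaxanthin, against 3.63 and 3.37 in controls, and cpg-1 no longer passed without either control array or indicaxanthin array 2.

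Genes of the cuticle and the moult placed the 4 arrays close together. The 14 larval cuticle genes averaged 5.96 and 6.08 with indicaxanthin, against 5.95 and 5.78 in controls. For the 46 genes of moulting and the apical matrix the averages were 5.82 and 5.63 with indicaxanthin and 5.71 and 5.79 in controls. The indoline-betacyanin arrays also had vit-2 under 6, at 2.90, 5.15 and 2.48, with array 2 nearest to the cut. Their yolk genes averaged 2.00, 3.17 and 1.67, so array 2 stood above the 4 arrays compared. The larval cuticle genes averaged 4.10, 4.29 and 4.44 with indoline-betacyanin, below all 4 arrays compared. Over all clusters the indicaxanthin arrays correlated with each other at 0.983 and with the control arrays at 0.946 to 0.970, and the control arrays with each other at 0.988, while array 3 correlated with arrays 1 and 2 at 0.826 and 0.818. A cluster here is the set of array probes summarised as 1 transcript.

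**Figure D1:**
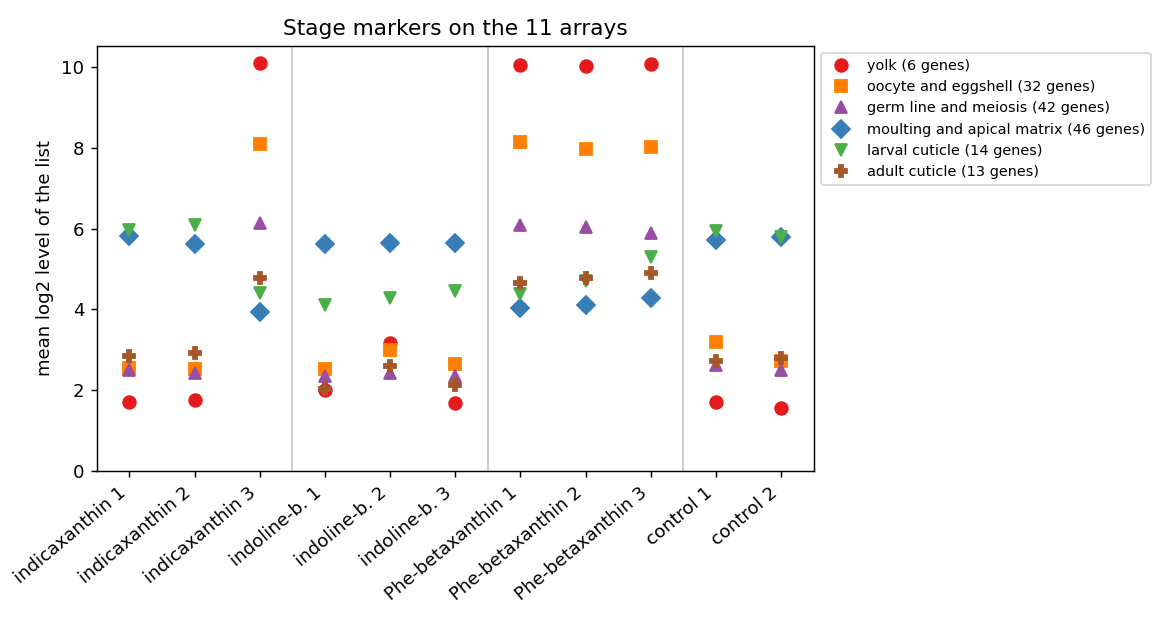
Mean log2 level (vertical axis) of 6 marker lists on each of the 11 arrays (horizontal axis), with 1 symbol per list. For the larval cuticle genes indicaxanthin arrays 1 and 2, at 5.96 and 6.08, lie near the control arrays, at 5.95 and 5.78. For the oocyte and eggshell genes they lie below the controls, at 2.56 and 2.52 against 3.19 and 2.71. The yolk list holds vit-2, by which the arrays were chosen, so its low level is no result. Indicaxanthin array 3 lies with phenylalanine-betaxanthin.

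Of 20291 clusters tested, 2143 passed an adjusted p of 0.05 (limma, Benjamini-Hochberg), which is 10.6%, with 621 higher (3.06%) and 1522 lower (7.5%) on indicaxanthin arrays 1 and 2. Among the 16178 protein-coding clusters tested, 594 were higher (3.67%) and 533 lower (3.29%), together 6.97%, and these shares are the background for the gene groups below. Protein-coding genes that rose did so by a median log2 difference of 0.87, and 8 of them by over 2. Those that fell did so by a median of -1.06, and 67 by over 2. With so few arrays the groups did not overlap for 51.5% of all tested clusters, so separation alone marks little.

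The number called depended on single arrays. Without indicaxanthin array 1 it was 3723 (1777 higher, 1946 lower), and without indicaxanthin array 2 it was 1351 (221 higher, 1130 lower). Without control array 1 it was 1166 (160 higher, 1006 lower), and without control array 2 it was 2037. Centring each array on its median moved the median difference of all tested clusters from 0.064 to 0.200, and the split then became 1656 higher and 1339 lower. Differences are given on the deposited scale with nothing subtracted, so a rise or fall is relative to 0. The median cluster itself stood at 0.064 on that scale.

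**Figure D2:**
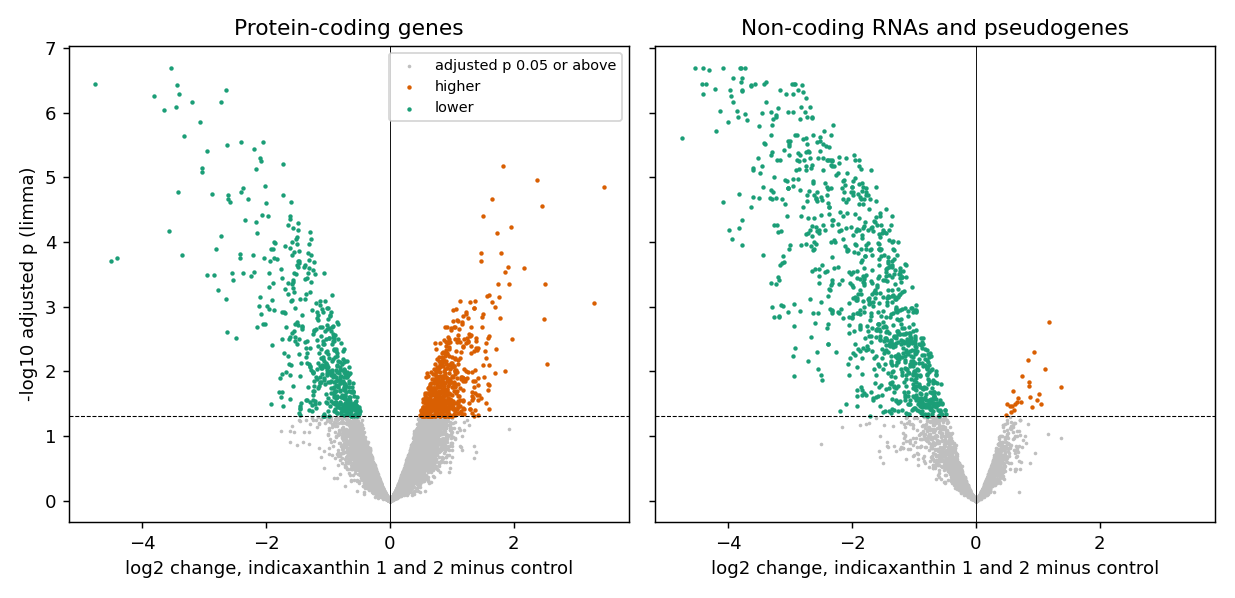
Log2 difference of indicaxanthin arrays 1 and 2 minus control (horizontal axis) against the negative log10 of limma's adjusted p (vertical axis), with 1 point per gene, for protein-coding genes (left) and for non-coding RNAs and pseudogenes (right); the dashed line is an adjusted p of 0.05. Protein-coding genes passed in both directions, while nearly all passing non-coding RNAs and pseudogenes were lower.

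Genes for secreted defence peptides and saposin-like proteins were among those that rose most. Of 24 epidermal antimicrobial peptide genes (the cnc, nlp and fipr families, which the skin of the worm secretes), 23 were tested, 8 rose and 0 fell, and the median difference was 0.58, against 0.098 for all protein-coding clusters. The caenacin gene cnc-2 had log2 levels of 7.43 and 7.87 on the indicaxanthin arrays, against 5.21 and 5.34 on the control arrays, a difference of 2.38 (SE 0.19, adjusted p = 1.08e-05). Its level with indoline-betacyanin, at 7.53 ± 0.11 (SD, n = 3), was close to that with indicaxanthin. The controls were therefore the low arrays for cnc-2.

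The same order held for cnc-7, another caenacin, which had 5.72 and 6.23 with indicaxanthin, against 4.29 and 4.46 in controls, a difference of 1.60 (SE 0.22, adjusted p = 0.000665). It also held for nlp-28, at 8.69 and 9.11 with indicaxanthin, against 7.47 and 7.60 in controls, a difference of 1.36 (SE 0.20, adjusted p = 0.00105). Neither cnc-7 nor nlp-28 passed the test against indoline-betacyanin, where the differences were 0.23 and 0.31. Against control the groups did not overlap for either gene.

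For nlp-29, which fungal infection and wounding of the epidermis are known to induce, indicaxanthin stood above the other groups. It had 9.47 and 9.78 with indicaxanthin, against 8.46 and 8.60 in controls, a difference of 1.09 (SE 0.19, adjusted p = 0.00348), and it was also higher than with indoline-betacyanin, by 1.03 (adjusted p = 0.00117). The related nlp-32 had 2.75 and 3.22 with indicaxanthin, against 1.99 and 1.82 in controls, a difference of 1.08 (SE 0.17, adjusted p = 0.00161), and was 1.15 above indoline-betacyanin (adjusted p = 0.000253). The other 3 peptide genes that rose, cnc-9, fipr-22 and cnc-4, fall outside the naming rule and were chosen after their values were seen. They differed from control by 1.17, 1.11 and 0.82, and the calls of fipr-22 and cnc-4 were lost without control array 1, without control array 2 or without indicaxanthin array 2. With single arrays left out, 6 to 11 members of the list rose.

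Among 40 tested lysozyme and saposin genes, enzymes and small proteins that break bacterial walls and membranes, 6 rose and 0 fell, with a median of 0.33. The saposin-like gene spp-9 showed the largest rise of any protein-coding gene, with 6.04 and 6.68 on the indicaxanthin arrays, against 3.10 and 2.69 on the control arrays, a difference of 3.46 (SE 0.29, adjusted p = 1.43e-05). Indoline-betacyanin, at 2.51 ± 0.29 (SD, n = 3), phenylalanine-betaxanthin, at 2.39 ± 0.39 (SD, n = 3), and indicaxanthin array 3, at 2.33, were all low, so the signal of spp-9 was high on 2 of the 11 arrays. The spp-27 gene, listed under its older name spp-20, had 4.41 and 4.31 with indicaxanthin, against 2.41 and 2.64 in controls, a difference of 1.84 (SE 0.14, adjusted p = 6.63e-06), and 1.84 ± 0.01 (SD, n = 3) with indoline-betacyanin.

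The invertebrate lysozyme ilys-3 had 4.89 and 6.07 with indicaxanthin, against 3.89 and 3.87 in controls, a difference of 1.60 (SE 0.36, adjusted p = 0.0155). For the lysozyme lys-9 the difference was 0.77 (SE 0.19, adjusted p = 0.0245). These 2 calls rested on single arrays. That of ilys-3 was lost without either control array or without indicaxanthin array 2, that of lys-9 without control array 1 or indicaxanthin array 2, and 2 to 12 members of the list rose with single arrays left out. Among 25 tested genes of intestinal immunity, a list that also holds ilys-3, that gene was the 1 that rose, and irg-5 fell, by 0.66 on the log2 scale, with a call lost without control array 2. Of 16 genes of hypoxia and sulfide, F22B5.4 rose, by 0.96, and its call was lost without either control array or indicaxanthin array 2.

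**Figure D3:**
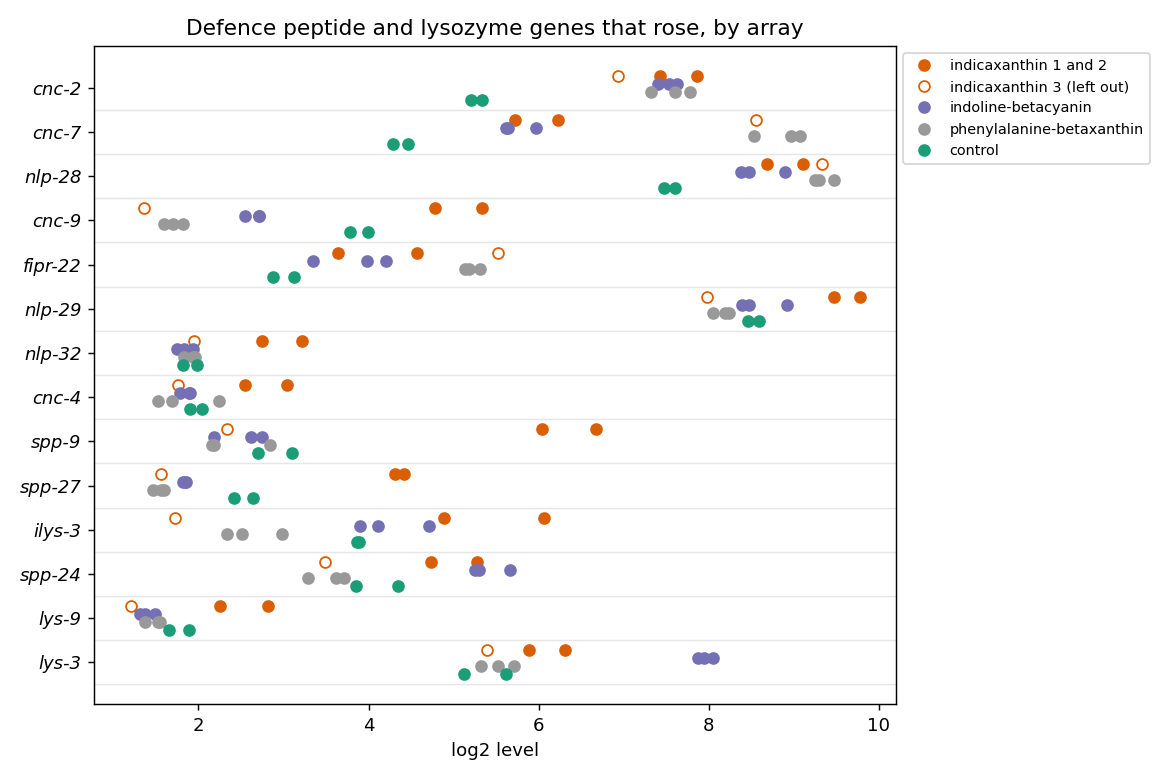
Log2 level (horizontal axis) of the 14 antimicrobial peptide, saposin and lysozyme genes that passed the test as higher, with 1 point per array and groups offset within each row. The filled orange points (indicaxanthin 1 and 2) lie right of the green points (control) in every row, and for spp-9, at 6.04 and 6.68, right of every other array.

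The remaining genes with the largest rises were mostly of unassigned function here. F40H7.12, now named ifas-1, had 5.65 and 6.12 with indicaxanthin, against 2.61 and 2.54 in controls, a difference of 3.31 (SE 0.48, adjusted p = 0.000863). F35C11.6 had 6.21 and 6.71 with indicaxanthin, against 3.83 and 4.18 in controls, a difference of 2.46 (SE 0.23, adjusted p = 2.77e-05). F26G1.2 had 8.55 and 8.85 with indicaxanthin, against 6.81 and 6.68 in controls, a difference of 1.96 (SE 0.20, adjusted p = 5.77e-05). In all 3 the lowest indicaxanthin array stood more than 1 log2 unit above the highest control array. With indoline-betacyanin, ifas-1 stood at 5.53 ± 0.27 and F26G1.2 at 8.28 ± 0.12 (SD, n = 3 each). Neither passed the test against it, with differences of 0.36 and 0.42, while F35C11.6 did, with a difference of 1.01. Rises of 1.86 to 2.55 were found for dct-8, Y46E12A.5, nspc-7, R09E10.13, Y41G9A.10, scl-21 (a member of the secreted SCP-like family), F12A10.9, the collagen gene col-170 and C11G10.1. Of these, R09E10.13 and Y41G9A.10 did not pass against indoline-betacyanin (differences -0.15 and -0.10), and the others were higher than with it. With phenylalanine-betaxanthin, dct-8, nspc-7, R09E10.13 and Y41G9A.10 also stood above controls, at means of 6.67, 4.49, 5.33 and 6.22, and the others below them. The spread was wide for dct-8, at 2.71 and 4.71 with indicaxanthin, against 1.00 and 1.33 in controls, and its call was lost without control array 1. That of col-170 was lost without control array 2 or indicaxanthin array 2.

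Detoxification genes rose in small numbers and by small amounts. Of 44 glutathione transferase genes tested, 6 rose and 0 fell, with a median of 0.32, and the largest of the 4 named was gstk-2, at 4.68 and 5.58 with indicaxanthin, against 4.27 and 4.16 in controls, a difference of 0.91 (SE 0.25, adjusted p = 0.0362). The others named, gst-28, gst-38 and gst-41, differed by 0.85, 0.81 and 0.77. With arrays left out in turn the count of this list was 2 (control 1), 1 (control 2), 13 (indicaxanthin 1) and 0 (indicaxanthin 2), so it hung on single arrays. For gst-4, the usual reporter of skn-1 activity, the levels were 7.78 and 8.33 with indicaxanthin, against 7.50 and 7.77 in controls, a difference of 0.42 that did not pass (SE 0.19, adjusted p = 0.207).

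Of 57 cytochrome P450 genes tested, 3 were higher, cyp-13A10 by 0.89 (SE 0.19, adjusted p = 0.0119), cyp-32A1 by 0.85 and cyp-29A3 by 0.65, and 0 were lower. This share lay near the 3.67% of all protein-coding clusters. Among 58 UDP-glucuronosyltransferase genes, whose enzymes attach sugars to foreign compounds, ugt-28 rose by 0.91 (SE 0.18, adjusted p = 0.00781) and ugt-38 fell. The levels of ugt-38 were 1.15 and 1.28 with indicaxanthin, against 4.88 and 4.42 in controls, a difference of -3.44 (SE 0.17, adjusted p = 3.79e-07). Without control array 1, ugt-38 fell under the filter on mean level and was not tested, and the calls of ugt-28 and cyp-13A10 were lost, that of cyp-13A10 also without indicaxanthin array 2. The call of cyp-32A1 was lost without control array 2, and that of cyp-29A3 without either control array or indicaxanthin array 1.

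Nuclear hormone receptors, the worm's large family of ligand-controlled transcription factors, had 13 of 215 tested genes higher and 1 lower, with a median of 0.18. The receptor gene nhr-246 had 4.10 and 4.17 with indicaxanthin, against 2.44 and 3.12 in controls, a difference of 1.36 (SE 0.26, adjusted p = 0.00493). Rises of 1.04, 0.84 and 0.83 were found for nhr-43, nhr-158 and nhr-210. With single arrays left out, 2 (without control 1) to 26 (without indicaxanthin 1) receptor genes rose, and nhr-210 was among those called in each case, while nhr-246 was lost without control array 1, nhr-158 without indicaxanthin array 2 and nhr-43 without either. In the 14-gene list around the aryl hydrocarbon receptor, 10 members were tested and 0 passed, with 0 at an unadjusted p under 0.05 too, and ahr-1 itself had 4.18 and 4.21 with indicaxanthin, against 3.94 and 4.46 in controls.

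The known regulators and reporters of stress resistance did not pass. For daf-16, the FOXO factor of insulin signalling, the levels were 6.33 and 6.01 with indicaxanthin, against 6.04 and 6.35 in controls. The insulin receptor gene daf-2 had 4.14 and 3.73, against 3.87 and 4.35 in controls. The superoxide dismutase gene sod-3, a daf-16 target, had 7.27 and 7.65, against 7.07 and 7.16 in controls, a difference of 0.34 (SE 0.17, adjusted p = 0.245). The groups overlapped for daf-16 and daf-2 and lay next to each other for sod-3.

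For the antioxidant regulator skn-1 the difference was -0.17 (adjusted p = 0.515), and for the heat shock factor hsf-1 it was -0.31 (adjusted p = 0.286). The chaperone genes hsp-4 and hsp-6, reporters of stress in the endoplasmic reticulum and the mitochondrion, differed by 0.022 and -0.095. The small heat shock gene hsp-16.2 had 1.61 and 3.18 with indicaxanthin, against 2.24 and 2.29 in controls. Its indicaxanthin arrays lay on both sides of the controls. A p that misses the threshold with 2 arrays a group does not show that these genes had equal levels.

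As lists, the insulin signalling core (20 tested), endoplasmic reticulum stress (21), mitochondrial stress (17), dauer hormone and TGF-beta genes (20), autophagy and lysosome (24), proteasome (33) and cytosolic ribosomal proteins (78) each had 0 members past limma's adjusted threshold. At an unadjusted p under 0.05 the same lists had 2, 2, 3, 5, 3, 0 and 4 members, where 4980 of all tested clusters passed. Of 16 genes repressed by DAF-16, dod-23 fell, by 1.58 on the log2 scale (adjusted p = 0.000799), and the metallothionein gene mtl-2, described below, rose. Of 18 heat shock genes and of 27 genes activated by DAF-16, the 1 that passed was sip-1, a small heat shock protein gene of embryos that is in both lists. It fell to 1.68 and 2.60 with indicaxanthin, against 4.17 and 3.41 in controls (adjusted p = 0.00588), and its call was lost without control array 1. The antioxidant list of 37 genes had 1 rise (gpx-5, a glutathione peroxidase gene, by 0.85) and 3 falls: ctl-3, a catalase gene, by 1.44 on the log2 scale, dhs-8 by 0.87 and trx-1, a thioredoxin gene, by 0.70. Of these 4, the call of dhs-8 was kept with each array left out, while those of the others were lost without 1 array or more.

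Metal and amino acid genes gave few calls, with a metallothionein among them. The metallothionein mtl-2, which binds zinc and cadmium in the intestine, had 6.61 and 7.48 with indicaxanthin, against 5.44 and 5.49 in controls, a difference of 1.58 (SE 0.28, adjusted p = 0.00305). Its neighbour in function mtl-1 had 9.49 and 9.82, against 8.60 and 8.92 in controls, a difference of 0.89 that missed the threshold (SE 0.26, adjusted p = 0.0528). With indoline-betacyanin both stood far lower, at 2.81 ± 0.30 for mtl-2 and 5.81 ± 0.27 for mtl-1 (SD, n = 3 each). Of 20 tested genes of metal handling, mtl-2 and the zinc transporter gene ttm-1 (by 0.73) rose, and 0 fell. Without either control array or without indicaxanthin array 2 the list had 1 rise, with ttm-1 lost, and without indicaxanthin array 1 it had 7.

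In the list for proline, phenylalanine and tyrosine metabolism, 1 of 20 tested genes rose. This was haao-1, of the kynurenine branch of tryptophan breakdown, by 1.04 (SE 0.29, adjusted p = 0.0466), and its call was lost without either control array or indicaxanthin array 2. The proline dehydrogenase gene prdh-1 (listed as B0513.5), whose enzyme starts the breakdown of proline, had 4.34 and 4.06 with indicaxanthin, against 3.15 and 3.80 in controls, a difference of 0.72 that did not pass (SE 0.22, adjusted p = 0.0613). Fatty acid desaturation and elongation (26 tested), lipid breakdown and binding (56) and central carbon metabolism (40) each had 0 genes past limma's adjusted threshold, and 2, 8 and 5 at an unadjusted p under 0.05. The desaturase gene fat-7 differed by 0.16 (adjusted p = 0.664), and the catalase gene ctl-2 by -0.51 (adjusted p = 0.139).

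Calls among cuticle genes went in both directions. Of 163 tested collagens, which build the cuticle and are remade at each moult, 11 rose and 5 fell, with a median of 0.17. The share that fell lay near the 3.29% of all protein-coding clusters, of which 3.67% rose. The collagen gene col-72 had 7.45 and 7.08 with indicaxanthin, against 5.96 and 6.01 in controls, a difference of 1.28 (SE 0.22, adjusted p = 0.00267). The body length collagen gene lon-3 was higher by 0.94 (SE 0.17, adjusted p = 0.00371). In the other direction, col-96 had 3.97 and 3.79 with indicaxanthin, against 5.87 and 5.96 in controls, a difference of -2.03 (SE 0.24, adjusted p = 0.00018), and col-74 fell by 1.50 on the log2 scale. These 4 calls were kept with each array left out, but the number of collagens that rose was 2 without control array 2, 3 without indicaxanthin array 2 and 16 without indicaxanthin array 1, and the number that fell was 2 without control array 1 and 3 without indicaxanthin array 2.

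Of 45 tested genes of moulting and the apical matrix, 3 rose and 0 fell: bli-5, a protease inhibitor gene of the moult, by 1.01, tsp-15, an epidermal tetraspanin gene, by 0.76, and mlt-3 by 0.69. The list's median was -0.12 on the deposited scale and 0.015 after centring, and no member of the 3 was called without indicaxanthin array 2. Among the 53 hedgehog-related genes, which are expressed in the epidermis, grd-4 rose by 1.61 and grl-1 by 0.90, while grl-2 fell by 0.76 and grl-8 by 0.65 on the log2 scale. In both directions this share lay near that of all protein-coding clusters (3.67% higher, 3.29% lower). The calls of grd-4 and grl-8 were each lost without control array 1 and without 1 or more other arrays.

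Of 15 heterochronic and clock genes, which time larval stages, lin-46 had 4.02 and 3.79 with indicaxanthin, against 2.71 and 2.60 in controls, a difference of 1.26 (SE 0.22, adjusted p = 0.00358). The transcription factor genes hbl-1 and lin-14, which hold earlier larval fates, were lower, hbl-1 at 5.83 and 4.91 with indicaxanthin, against 6.41 and 6.53 in controls (difference -1.11, SE 0.25, adjusted p = 0.0144), and lin-14 at 4.52 and 3.88, against 4.92 and 5.20 in controls (difference -0.86, SE 0.24, adjusted p = 0.0438). The 4 arrays thus differed in genes that change with larval age. The call of lin-46 was kept with each array left out, and those of hbl-1 and lin-14 were lost without either control array or indicaxanthin array 2. The part of a difference in age in the results above was not tested.

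The pqn and abu genes, glutamine-rich proteins of which several line the pharynx, had 6 of 57 tested members lower and 0 higher. With no filter on mean level, 6 of 66 were lower and 0 higher, where 2.95% and 2.88% of all protein-coding clusters were. A member high on the controls alone could pass the filter for that reason, so the filtered count is no measure of the family. The fall was to 1.58 and 1.36 with indicaxanthin, against 4.17 and 3.51 in controls, for pqn-16 (difference -2.37, SE 0.20, adjusted p = 1.48e-05). For abu-6 the levels were 2.48 and 2.51, against 4.91 and 3.99 in controls (difference -1.95, SE 0.26, adjusted p = 0.000496), and pqn-57 and abu-7 fell by 1.42 and 1.24 on the log2 scale. Probes of near-identical abu genes can share signal, so single members are uncertain. With single arrays left out, 3 (control 1 or indicaxanthin 2), 8 (control 2) and 9 (indicaxanthin 1) members were lower.

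Among neuropeptide genes more rose than fell, with the higher signal mostly on indicaxanthin array 2. The neuropeptide-like list averaged 4.96 and 5.43 on indicaxanthin arrays 1 and 2, against 4.87 and 4.83 in controls. For the FMRFamide-like list the averages were 5.36 and 5.90, against 5.27 and 5.25 in controls. Of 74 neuropeptide-like genes tested, a list that shares its nlp members with the antimicrobial list, 9 rose and 1 fell, with a median of 0.33. The neuropeptide-like gene nlp-46 had 3.37 and 3.71 with indicaxanthin, against 2.15 and 2.18 in controls, a difference of 1.38 (SE 0.20, adjusted p = 0.000824). Of 31 FMRFamide-like genes, flp-21 rose by 1.09 (SE 0.26, adjusted p = 0.0203) and flp-5 by 0.82. Both of these calls were lost without control array 1 or indicaxanthin array 2, and without indicaxanthin array 1 the numbers that rose were 28 neuropeptide-like and 12 FMRFamide-like genes.

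Insulin-like peptide genes, ligands of the daf-2 receptor, gave calls both ways, with 2 of 31 tested members higher and 3 lower. With no filter on mean level, 2 of 39 were higher and 4 lower, where 2.88% and 2.95% of all protein-coding clusters were. A member high on the controls alone, such as ins-3 below, could pass the filter for that reason. The filtered count is thus no measure of the family. The intestinal and neuronal peptide gene ins-11 had 5.72 and 6.30 with indicaxanthin, against 4.45 and 4.59 in controls, a difference of 1.49 (SE 0.23, adjusted p = 0.00146). Its relative ins-12 was higher by 0.91. On the other side, ins-3 had 1.29 and 1.44 with indicaxanthin, against 2.73 and 2.54 in controls, a difference of -1.27 (SE 0.15, adjusted p = 0.00016), and ins-1 fell by 0.59 on the log2 scale. Without control array 1 the count was 1 higher and 1 lower, and without indicaxanthin array 1 it was 9 higher and 2 lower. Of 48 tested neuronal genes, 3 were lower: odr-10, the diacetyl receptor gene, by 1.29, and the LIM homeobox genes lin-11, by 0.65, and ttx-3, by 0.54. The calls of lin-11 and ttx-3 were lost without control array 1, without either indicaxanthin array and, for ttx-3, without control array 2.

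**Figure D4:**
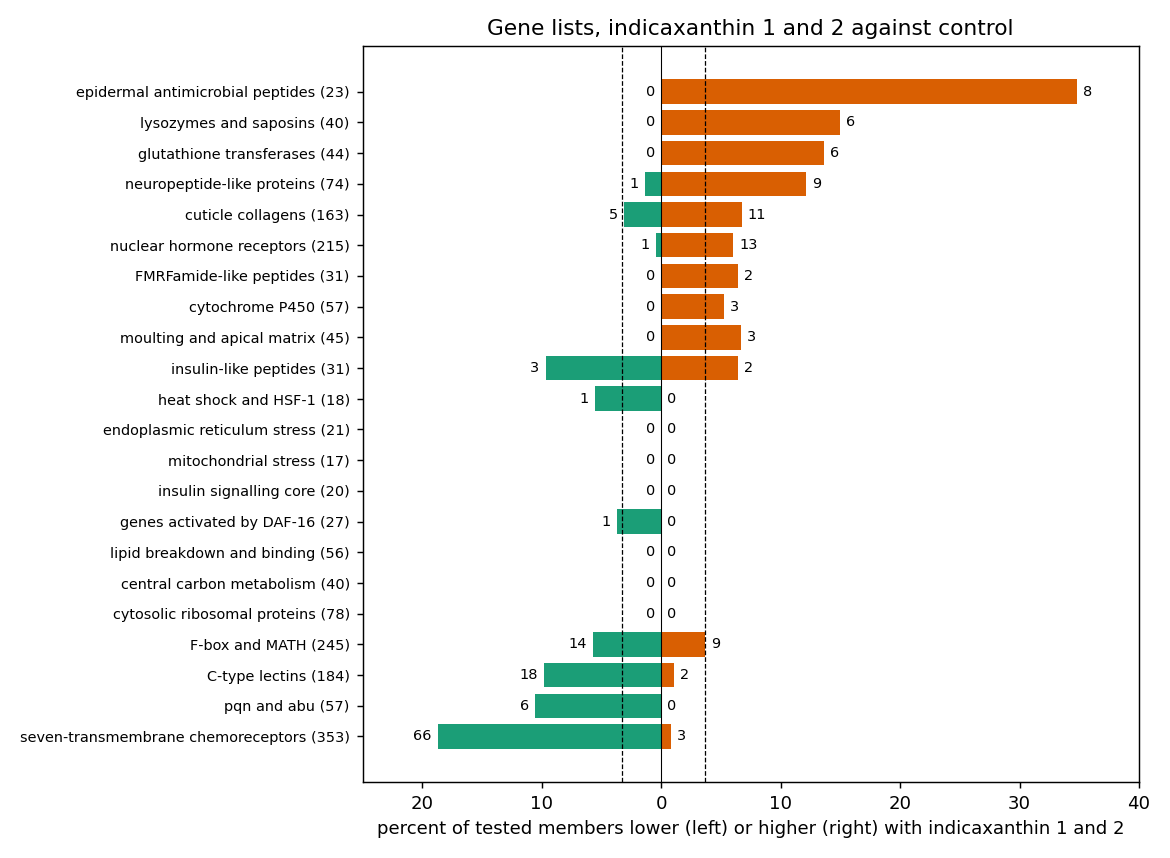
Percent of the tested members of 22 gene lists (tested number in brackets) that passed as lower (green, left) or higher (orange, right) on indicaxanthin arrays 1 and 2 against control, with the counts at the bar ends; dashed lines are the shares of all protein-coding clusters (3.29% lower, 3.67% higher). The bar of the epidermal antimicrobial peptides, 8 of 23, is the longest on the higher side, and that of the chemoreceptors on the lower side.

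In the lectin and chemoreceptor families more members fell than rose. Of 184 C-type lectin genes tested, which encode carbohydrate-binding proteins, 18 fell and 2 rose, with a median of 0.0002. With no filter on mean level, 20 of 235 fell and 1 rose, where 2.95% and 2.88% of all protein-coding clusters did. Genes high on the controls alone could pass the filter for that reason, so filtered counts here are no measure of a family. The lectin gene clec-40 had 1.72 and 1.84 with indicaxanthin, against 3.97 and 3.23 in controls, a difference of -1.82 (SE 0.22, adjusted p = 0.000184), and clec-33, clec-140 and clec-164 fell by 1.61 to 1.70 on the log2 scale. Of 245 F-box and MATH genes tested, whose proteins mark others for breakdown, 14 fell and 9 rose. With no filter, 14 of 385 fell and 9 rose, shares near those of all protein-coding clusters. The falls were led by fbxb-31, at 1.34 and 1.49 with indicaxanthin, against 4.12 and 3.87 in controls (difference -2.58, SE 0.23, adjusted p = 2.39e-05). With single arrays left out, 10 to 16 lectin genes and 7 to 16 F-box and MATH genes were lower, the fewest F-box and MATH genes without control array 1.

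Seven-transmembrane chemoreceptor genes are many and mostly weakly expressed in single neurons. The arrays hold 1280 of them, 353 passed the filter on mean level, and 66 of these fell while 3 rose; with no filter, 85 of the 1280 fell and 3 rose, where 2.95% and 2.88% of all protein-coding clusters did. A member high on the controls alone could pass the filter for that reason, so the count is no measure of the family. The ascaroside pheromone receptor gene srg-36 had 2.30 and 1.96 with indicaxanthin, against 5.15 and 5.49 in controls, a difference of -3.20 (SE 0.18, adjusted p = 6.95e-07). The chemoreceptor gene srw-63 had 1.72 and 1.78, against 4.40 and 5.03 in controls, a difference of -2.96 (SE 0.21, adjusted p = 3.95e-06), and srg-38 and str-8 fell by 2.20 and 1.73 on the log2 scale. Without control array 1 the number of tested members that fell was 34, and without indicaxanthin array 2 it was 36.

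The protein-coding genes with the largest falls had low signal with indicaxanthin and clear signal in controls. T16G1.13 had 2.69 and 1.99 with indicaxanthin, against 7.32 and 6.91 in controls, a difference of -4.77 (SE 0.23, adjusted p = 3.58e-07). Y17D7C.1 had 3.47 and 3.03 with indicaxanthin, against 7.13 and 7.0 in controls, a difference of -3.81 (SE 0.20, adjusted p = 5.5e-07). The histone gene his-54 had 2.97 and 2.01 with indicaxanthin, against 6.12 and 5.72 in controls, a difference of -3.43 (SE 0.30, adjusted p = 1.7e-05). It was the 1 histone gene of 49 that fell, and his-41 rose by 1.19, with a call lost without either control array or indicaxanthin array 2. Falls of 3.07 to 4.51 on the log2 scale were found for T13A10.1, F36H12.5, F11A5.13, F07C3.16, K09C8.9, C55A1.11, C17C3.24, T01G5.8, irld-18 (a gene for a protein with insulin and EGF receptor L domains) and K05D4.9. The cytochrome c gene cyc-2.2, at 2.42 and 2.05 with indicaxanthin, against 5.02 and 5.18 in controls, was the 1 gene of 61 tested for the respiratory chain that passed.

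Non-coding RNA made up most of the lowered clusters. Of 6814 named ncRNA clusters on the arrays 3604 were tested, of which 937 fell and 20 rose; with no filter 968 fell, where 5.92% of all named clusters did. The largest fall, in M01A8.4, was to 2.44 and 1.30 with indicaxanthin, against 6.88 and 6.37 in controls (difference -4.75, SE 0.31, adjusted p = 2.49e-06), and falls of 4.41 to 4.54 on the log2 scale were found for F23C11.2, D2024.17, F40E10.10 and T28B4.6. Of 16 rRNA clusters 13 fell, with a median of -2.39. The largest rises outside protein-coding genes, in ZK643.11, T01B4.4, ZK381.40, pqbp-1.2 and Y67D2.10, were of 1.03 to 1.38, and each of the 5 except T01B4.4 lost its call without 1 array or more. With single arrays left out, 681 to 939 ncRNA clusters fell.

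By their median, the lowered clusters were high on the control arrays and low on all others. The median log2 level of the 976 lowered clusters outside protein-coding genes was 1.98 and 1.89 on the indicaxanthin arrays, 1.62 to 1.83 on the 7 arrays of the other groups and of indicaxanthin array 3, and 3.90 and 3.59 on the control arrays. For the 533 lowered protein-coding clusters it was 1.85 and 1.82 with indicaxanthin, 1.73 to 1.84 on those 7 arrays, and 3.17 and 2.92 on the controls. The median of all 29317 clusters lay at 1.97 and 2.01 with indicaxanthin, against 2.17 and 2.12 in controls, so the medians of both sets lay near or under the middle of these arrays with indicaxanthin and above it on the controls. Single protein-coding genes departed from this. The upper quartile of the lowered protein-coding clusters was 3.42 on indicaxanthin array 3 and 3.30 to 3.44 with phenylalanine-betaxanthin, against 2.44 and 2.35 on indicaxanthin arrays 1 and 2. T16G1.13, for example, stood at 5.88 on array 3 and at 5.59 ± 0.14 (SD, n = 3) with phenylalanine-betaxanthin, and cyc-2.2 at 6.98 on array 3, above both controls. For clusters high on the 2 control arrays alone, indicaxanthin and what set those arrays apart from the other 9 cannot be told apart. The 594 protein-coding clusters that rose had medians of 4.64 and 4.97 with indicaxanthin, 4.21 to 4.32 with indoline-betacyanin, and 3.74 and 3.87 in controls.

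**Figure D5:**
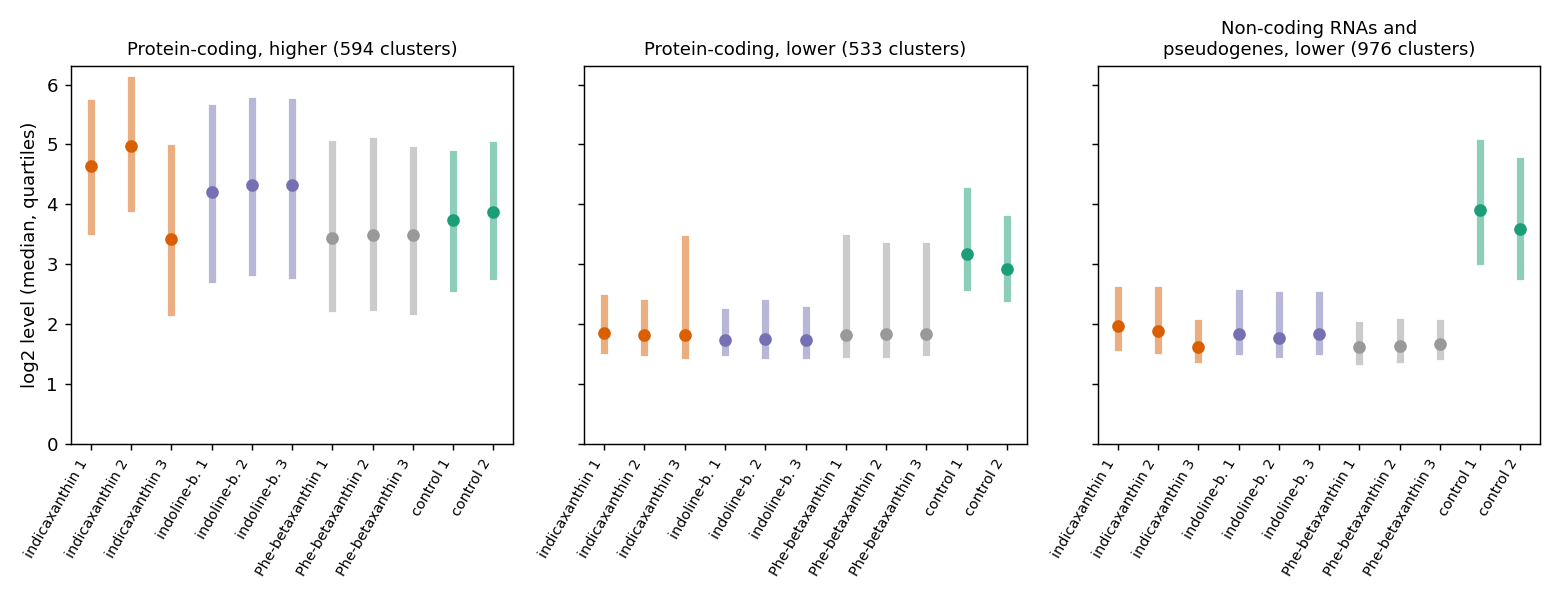
Median log2 level (points) and quartiles (bars) on each of the 11 arrays, for protein-coding clusters that rose (left), protein-coding clusters that fell (middle), and non-coding RNA and pseudogene clusters that fell (right) on indicaxanthin arrays 1 and 2 against control. In the 2 panels of lowered clusters the control arrays, at medians of 2.92 to 3.90, stand above the medians of all 9 others.

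Against indoline-betacyanin, given at the same dose for the same time, the indicaxanthin arrays differed in more clusters than against control: 5664 of 20291 passed (27.9%), with 2739 higher (13.5%) and 2925 lower (14.4%). Both comparisons use the same indicaxanthin arrays. Indoline-betacyanin array 2 had a vit-2 level of 5.15, above the 2.39 and 1.92 on those arrays. The 2 compounds differ in the part joined to betalamic acid, proline in one and indoline carboxylic acid in the other. Of the stage lists, larval cuticle had 10 of 14 genes higher with indicaxanthin and 0 lower. The others moved less or both ways. Moulting and the apical matrix had 12 of 45 higher and 9 lower, and adult cuticle 2 of 13 higher and 0 lower. Germ line and meiosis had 2 of 42 higher and 1 lower, oocyte and eggshell 0 and 3 of 32, and yolk 0 and 0 of 6. Outside these lists, 91 of 163 collagens were higher and 3 lower, and 34 of 49 histones were higher and 1 lower. The part of stage in the result was not tested.

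The differences named here were chosen among genes that had also passed against control, so their passing there is no result. The collagen gene col-93 had 7.89 and 8.99 with indicaxanthin and 1.70 ± 0.23 with indoline-betacyanin (SD, n = 3), a difference of 6.74 (adjusted p = 3.92e-07), and 7.38 and 6.66 in controls. Its relatives col-180, col-159 and col-157 were higher by 4.86, 4.77 and 3.95, although col-157 was 0.87 lower than in controls on the log2 scale. The metallothionein gene mtl-2 was higher than with indoline-betacyanin by 4.24 (adjusted p = 1.06e-06). In the other direction, ins-11 stood at 9.45 ± 0.10 with indoline-betacyanin (SD, n = 3), so that indicaxanthin was 3.44 lower (adjusted p = 1.44e-06) while 1.49 higher than control. The genes Y73B6BL.37, thn-5 (of the thaumatin-like family), F44E7.5 and med-2 (an endoderm and mesoderm factor of the embryo) were lower by 3.94, 3.70, 3.54 and 3.00 on the log2 scale, of which the first 2 were higher than control and the last 2 lower. Calls against control were lost on leaving out 1 array or more for the 4 collagens, Y73B6BL.37, F44E7.5 and med-2.

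Among defence genes, spp-9 and spp-27 were higher with indicaxanthin than with indoline-betacyanin by 3.85 (adjusted p = 2.54e-06) and 2.52 (adjusted p = 5.58e-07). The stress reporters differed too. The small heat shock gene hsp-16.2 was lower by 2.76 on the log2 scale (adjusted p = 0.00034), hsp-4 by 1.62 and ahr-1 by 1.79, and gst-4 was higher by 1.47 (adjusted p = 0.000102). Of 18 heat shock genes, 10 were lower and 0 higher with indicaxanthin than with indoline-betacyanin.

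The authors' deposited table for indicaxanthin lists clusters with an unadjusted p under 0.05, 3728 in number, which is 12.7% of all clusters on the arrays, 1828 with a ratio above 1 and 1900 below. Its sums of squares correspond to 2 arrays in each group, and its log2 ratios correlated with the differences of arrays 1 and 2 against control at 0.988, so the authors' deposited table appears to rest on these 4 arrays. Of the clusters it lists, 2601 were tested here and 1122 passed, which is 30.1% of those listed and 52.4% of those called here, with 0 in opposite directions. The authors' deposited table gives ratios of 10.2 for spp-9 (p = 0.0128), 5.72 for cnc-2 (p = 0.00942) and 0.0677 for T16G1.13 (p = 0.0358).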

How the data were processed

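Whole animals were measured on 1-colour arrays, 1 log2 value per transcript cluster and array. The authors deposited log2 values; RMA is named for them in the submitters' processing notes. A deposited table gives a linear ratio, an unadjusted p-value and, as scores, sums of squares for each cluster, per the file headers. Array model, annotation release and genome build are not given in the sources used, and no position is printed. Groups came from the labels. Nothing says what the trials of different groups shared, so p-values speak only for the spread among these arrays, whose number limits the precision.

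Of 29317 clusters 27055 were named, and 26811 matched the RefSeq gene table (assembly WBcel235), which gave current symbols and biotypes. Clusters whose mean over 10 arrays lay above the 25th percentile of named clusters (log2 1.525) were tested, which left 20291. limma 3.58.1 (R 4.3.3) fitted 4 groups on 10 arrays without a block, with 6 residual and 5.01 prior degrees of freedom, and p-values were adjusted by Benjamini-Hochberg at 0.05. A list counts each gene once, by its cluster with the highest mean. The text names the 15 protein-coding and 5 other genes with the largest changes each way whose groups do not overlap, up to 4 members of each list, 16 set genes, and 5 genes each way against indoline-betacyanin. The last were taken only among genes that had also passed against control. The members, the lists and the rule were chosen with earlier results of these data known. The fit was tested on simulated data. Alternatives were a replicate block, other filters, scalings and variance models, other sets of arrays, and each array left out.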

Additional observations from a re-analysis of the deposited data

Results flagged for a closer look

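Indicaxanthin array 3 carries the same label as arrays 1 and 2 but had a vit-2 level of 10.26, against 2.39 and 1.92 on those arrays and 1.58 and 1.81 on the control arrays. It drew attention because no comparison above uses it.

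Clusters without a gene name, also used in no comparison, held signal that moved with the groups. Of 1611 such clusters above the filter, 9 (0.559%) had both indicaxanthin arrays more than 1 log2 unit above both control arrays, and 196 (12.2%) had both more than 1 unit below. Among named clusters 48 (0.237%) and 744 (3.67%) did so.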

How the results depend on the processing

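Against control, the 2143 calls became 1253 with a filter at the median, 1258 with indicaxanthin array 3 added, 716 with a fit of the 2 groups alone, and 3728 by the authors' deposited table and its unadjusted p. With 1 array left out the range was 1166 to 3723. The other 8 alternatives gave 1463 to 2995. Against indoline-betacyanin, the 5664 calls became 2882 with array 3 added and 4417 to 5666 with 1 array left out, and the others gave 4658 to 5804. With the replicate number as a block the counts were 2047 and 5064. Deviations of same-numbered arrays of control and indicaxanthin correlated at -0.031, and other pairs of groups gave values from -0.121 to 0.172, so the numbers were not taken to pair the samples. Of the named genes past the threshold against control, 37 kept the call in every refit that tested them, 73 lost it in the fit of 2 groups, and 69 with array 3 added. With array 3 added the sign turned for sip-1 (0.10), dod-23 (0.26), tsp-15 (-0.39), meg-1 (0.31), cpg-1 (1.58), col-72 (-0.29), grl-1 (-0.11), F44E7.5 (0.57) and cnc-9 (-0.07), and for mtl-1 (-1.28), gst-4 (-0.25), sod-3 (-1.07), hsf-1 (0.33), hsp-6 (0.12) and daf-2 (0.06), which had not passed. Centring turned hsp-6 (0.04), daf-16 (0.11) and ahr-1 (0.13), and quantile normalization hsp-4 (-0.03) and ahr-1 (0.01). With 1 array left out, genes that had not passed ranged over 0: daf-16 from -0.19 to 0.14, hsp-4 from -0.17 to 0.21, daf-2 from -0.42 to 0.07, ahr-1 from -0.27 to 0.26, alh-6 from -0.15 to 0.17, hsp-6 from -0.23 to 0.04 and hsp-16.2 from -0.65 to 0.91. The cause of these changes was not tested. Low signal limits the falls: the median lowered cluster lay under the middle of the arrays with indicaxanthin.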
